A study of Mus musculus with 6 samples.

Results

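The genes described here release calcium from the endoplasmic reticulum (ER), pump it back or sense its level there: the ryanodine receptors Ryr1, Ryr2 and Ryr3, the IP3 receptors Itpr1, Itpr2 and Itpr3, the calcium pump gene Atp2a2, and the calcium sensors Stim1 and Stim2. The 9 genes were picked by name from a table of 18160 genes, and all 9 exceeded the mean normalized count of 10 that the 15151 tested genes had to reach. They were taken as a functional group with the results of the genotype comparison known, and Ryr3 was already known to have one of the smallest p-values. Their fold changes are therefore given as a description and support nothing further.

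Messenger RNA of the prefrontal cortex was sequenced in C57BL/6J mice, taken at postnatal day 56. There were 3 samples heterozygous for a Cyfip2 mutation (HET1, HET2 and HET3) and 3 wild-type samples (WT1, WT2 and WT3). Cyfip2 encodes part of the WAVE complex, which drives branched actin assembly, and the design asks how the adult cortical transcriptome differs when 1 allele is mutated. The labels give neither the construction of the allele nor the sex of the mice. They also do not say whether each sample is a separate animal, so p-values measure only the spread between these samples.

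Calcium stored in the ER of a neuron leaves through ryanodine receptors, which open when cytosolic calcium rises, and through IP3 receptors, which also need IP3 made by phospholipase C after activation of Gq-coupled receptors. SERCA pumps refill the store. STIM proteins span the ER membrane, sense calcium in the lumen and, when the store empties, open Orai channels in the plasma membrane. In cortical neurons these stores contribute to dendritic calcium signals and synaptic plasticity.

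The labels were first checked against the mutated gene. Cyfip2 had 28356, 28578 and 29567 normalized counts in HET1, HET2 and HET3, against 45454, 43174 and 45627 in WT1, WT2 and WT3. It fell in heterozygotes, with a log2 fold change of -0.63 ± 0.05 (SE) and an adjusted p of 0.0027 by limma-trend. Column totals were nearly equal. The spacing of the lowest values implies, as an estimate, 32000000 to 37400000 reads in heterozygous samples and 27200000 to 48200000 reads in wild-type samples. On that estimate Ryr3 rested on 1140 to 1479 reads in heterozygous samples and 686 to 1468 in wild-type samples, with WT3 the shallowest library. Markers of cortical excitatory neurons (Slc17a7, Neurod6, Tbr1 and Neurod2) summed to 57118 to 61415 in heterozygous samples and 60767 to 65514 in wild-type samples, so the tissue label has its defining markers in each sample. In bulk tissue, fewer cells of a type and less RNA per cell cannot be told apart.

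The receptor genes are large paralogues, and the coding sequence of their pore is shown first because reads from a conserved stretch are the ones most easily assigned to the wrong paralogue. Each line is 60 bases of coding sequence, 5′ to 3′, from GENCODE M21 transcripts on GRCm38. The 18 capitals are the codons of the glycine-rich selectivity filter, the stretch of the pore that calcium passes.
Ryr1: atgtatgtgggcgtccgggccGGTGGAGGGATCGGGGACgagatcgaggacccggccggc
Ryr2: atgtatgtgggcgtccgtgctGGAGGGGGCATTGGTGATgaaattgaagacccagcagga
Ryr3: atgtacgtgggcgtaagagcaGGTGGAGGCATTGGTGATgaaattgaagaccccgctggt
Itpr1: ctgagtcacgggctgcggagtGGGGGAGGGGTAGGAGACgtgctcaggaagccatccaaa
Itpr2: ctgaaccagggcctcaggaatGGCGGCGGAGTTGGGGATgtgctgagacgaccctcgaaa
Itpr3: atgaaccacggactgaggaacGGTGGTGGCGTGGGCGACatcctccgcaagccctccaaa
These stretches lie at chr7:29005577-29005636 (minus strand) for Ryr1, chr13:11560606-11560665 (minus strand) for Ryr2 and chr2:112636610-112636669 (minus strand) for Ryr3. Those of the IP3 receptors lie at chr6:108518767-108518826 (plus strand) for Itpr1, chr6:146158890-146158949 (minus strand) for Itpr2 and chr17:27118610-27118669 (plus strand) for Itpr3. Each lies within 1 exon.

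Ryr2 and Ryr3 differed at 10 of these 60 bases and at 2 of the 18 capitals. Ryr1 differed from Ryr2 at 14 bases and from Ryr3 at 15. The IP3 receptors differed from each other at 17 to 20 bases, and Ryr2 differed from Itpr1 at 32. Over the whole aligned coding sequence, ryanodine receptors were 66.9% to 68.6% identical in pairs, IP3 receptors 67.2% to 70.0%, and Stim1 and Stim2 60.6%. At this divergence few exact stretches are shared. None of the 19146 distinct 31-base stretches of the Ryr3 transcripts occurred in the same orientation in a transcript of another gene. For the other receptors the share was at most 0.465% (Itpr2). Reverse complements were not compared, so overlaps with genes on the opposite strand do not enter these shares. Atp2a2 had the highest share, 4.49%, of which most (260 of 274 stretches) matched the predicted gene Gm30970. For Stim2 the share was 1.28%.

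Ryr3 (ENSMUSG00000057378) spans 112631355 to 113217096 on the minus strand of chromosome 2 and is annotated with 12 transcripts. Its exons overlap those of Aven, a cell-death inhibitor gene on the opposite strand, by 916 bases. The library kit keeps strand, but the labels do not state whether counting used it. Aven had 299, 272 and 247 normalized counts in HET1, HET2 and HET3, against 227, 255 and 271 in WT1, WT2 and WT3, and the groups overlapped (log2 fold change 0.12 ± 0.11 (SE), adjusted p = 0.97 by limma-trend). Of the other receptors, Ryr1, Itpr1 and Itpr3 overlap annotated antisense transcripts over 864, 108 and 233 exonic bases. Also on the opposite strand, Itpr1 shares 181 exonic bases with the predicted gene Gm44101, and Ryr1 shares 50 with the microRNA gene Gm44408. These overlaps are not analysed here.

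Levels can be compared between genes only per length, so normalized counts were divided by the length of the merged exons of each gene. Atp2a2, which encodes the SERCA2 pump, was the most abundant of the group, with 6398 ± 448 normalized counts per kb (SD over the 6 samples). That level lay above 99.0% of the tested genes. Itpr1, the main IP3 receptor of neurons, followed with 1573 ± 79.3 per kb, and then Ryr2, the main ryanodine receptor of heart and brain, with 432 ± 19.2 per kb. Stim1 had 299.9 ± 6.94 per kb and Stim2 109.7 ± 11.7 per kb. The lowest levels were those of Itpr2, with 69.2 ± 8.71, Ryr3, with 65.8 ± 12, Ryr1, with 55.9 ± 3.71, and Itpr3, with 37.2 ± 2.74 per kb (SD, n = 6 each).

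**Figure D1:**
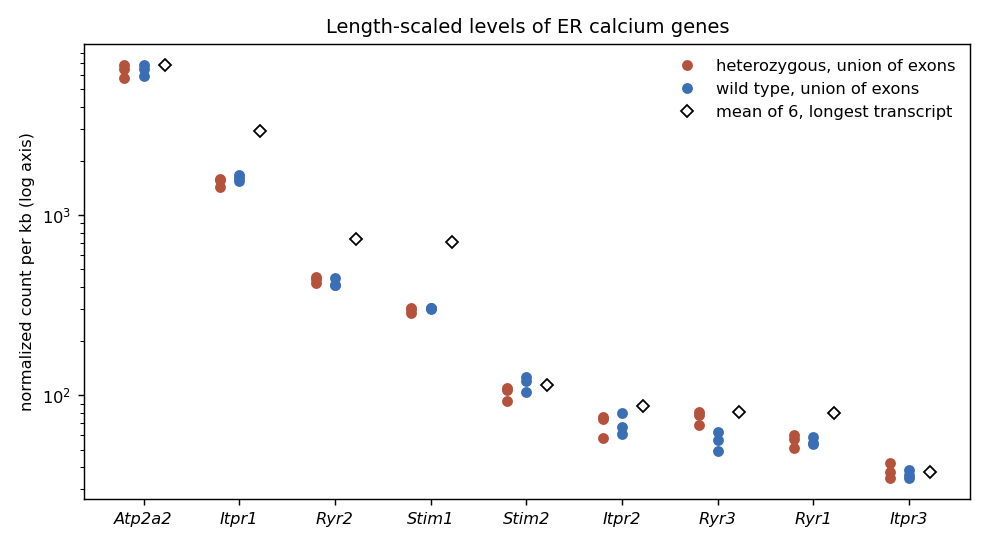
Length-scaled level (normalized count per kb, log axis) of the 9 genes in order of their mean, with 3 heterozygous samples left of 3 wild-type samples as points and the mean over 6 samples with the longest transcript as length as open diamonds. Atp2a2, Itpr1 and Ryr2 stand above the rest, Itpr2, Ryr3 and Ryr1 lie close together, and with the longest transcript Ryr2 and Stim1 nearly coincide.

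Neighbours in this order were compared within each sample, genotypes together, by an exact two-sided sign-flip permutation test of the log2 ratio over 6 samples, adjusted over 8 pairs. The smallest p this test can give is 0.0312. Atp2a2 was 4.06-fold above Itpr1, Itpr1 3.64-fold above Ryr2, Ryr2 1.44-fold above Stim1, Stim1 2.75-fold above Stim2, Stim2 1.59-fold above Itpr2 and Ryr1 1.5-fold above Itpr3. Each of these 6 differences held in 6 of 6 samples (adjusted p = 0.0417 each, exact permutation test). The order was taken from the means of these same samples. These p values therefore show only that each ratio repeated across the samples. With the genotypes pooled, Itpr2 and Ryr3 did not differ beyond their spread (adjusted p = 0.5, exact permutation test). Itpr2 was higher in 3 of 6 samples, namely WT1, WT2 and WT3, and Ryr3 was higher in HET1, HET2 and HET3. Nor did Ryr3 and Ryr1 differ beyond their spread (adjusted p = 0.143, exact permutation test). Ryr3 was higher in 4 of 6 samples, namely HET1, HET2, HET3 and WT2. The pooled test does not describe either genotype alone. Per length of the longest transcript the order was the same, but none of the 6 differences stayed under the threshold of 0.05. Ryr2 was then 1.04-fold above Stim1 and higher in 3 of 6 samples (adjusted p = 0.333, exact permutation test), and the other 5 had an adjusted p of 0.05 by the exact permutation test. Atp2a2 was then 2.35-fold above Itpr1, and Stim1 6.28-fold above Stim2.

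Ryr3 was the member with the largest difference between genotypes. This ryanodine receptor is expressed in brain and smooth muscle and contributes to calcium-induced calcium release. It had 1467, 1525 and 1305 normalized counts in HET1, HET2 and HET3, against 1077, 1180 and 935 in WT1, WT2 and WT3. All 3 heterozygous values lay above all 3 wild-type values, with HET2 highest and WT3 lowest. The means were 1432 ± 114 in heterozygous and 1064 ± 123 in wild-type samples (SD, n = 3 each), a fold of 1.35 with a 95% interval of 1.16 to 1.56 on the log2(value + 1) scale. The log2 fold change was 0.43 ± 0.09 (SE). Its p ranked 22 among the 15151 genes, at 0.0011 before adjustment, and it did not pass over all genes (adjusted p = 0.67 by limma-trend).

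**Figure D2:**
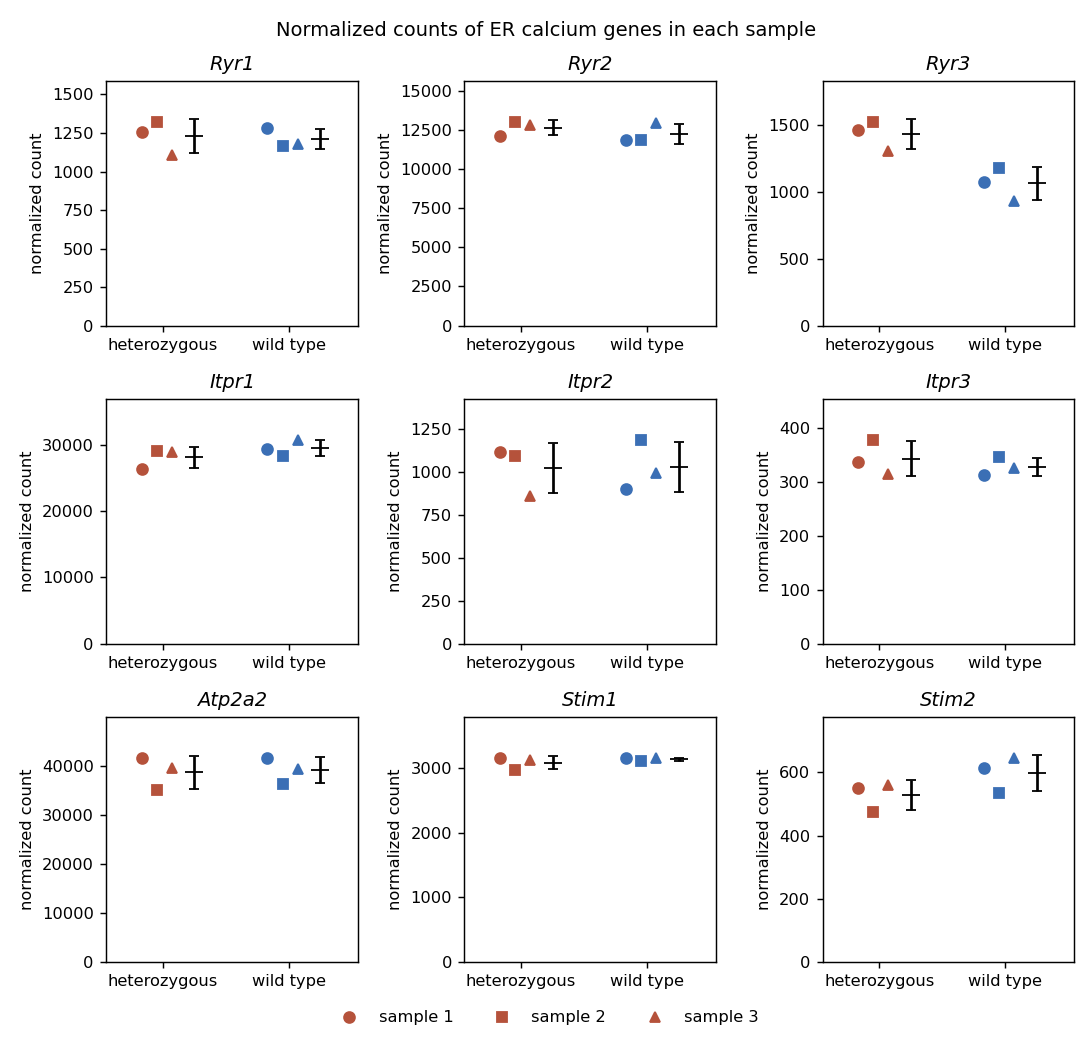
Normalized counts (y axes from 0) of the 9 genes in heterozygous (left, red) and wild-type samples (right, blue), with marker shape for sample number and mean ± SD (n = 3) as bars. Ryr3 is the gene whose groups do not overlap, at 1305 to 1525 in heterozygous and 935 to 1180 in wild-type samples.

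Ryr2 had 12096, 13017 and 12794 normalized counts in HET1, HET2 and HET3, against 11850, 11858 and 12953 in WT1, WT2 and WT3. WT3 lay among the heterozygous samples and the groups overlapped, at means of 12636 ± 480 in heterozygous and 12220 ± 634 in wild-type samples (SD, n = 3 each). Ryr1, the ryanodine receptor of skeletal muscle, had 1257, 1323 and 1109 in HET1, HET2 and HET3, against 1284, 1166 and 1181 in WT1, WT2 and WT3. HET3 was the lowest sample and HET2 the highest, so the heterozygous range enclosed the wild-type range. The 95% intervals of their log2 fold changes were -0.08 to 0.17 for Ryr2 and -0.16 to 0.20 for Ryr1. As a check for muscle around the tissue, 7 skeletal muscle markers summed to 496 to 599 normalized counts in heterozygous and 514 to 681 in wild-type samples. Of these, Ckm and Tnnt3 had means under 10. The other 5 (Acta1, Myh4, Myh1, Mylpf and Ttn) reached the mean needed for testing. Among those 5, 1 was above wild type in its mean log2 value, beside 7701 of all 15151 tested genes. The part of muscle RNA in the Ryr1 values was not tested.

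Itpr1 had 26348, 29138 and 28896 normalized counts in HET1, HET2 and HET3, against 29391, 28341 and 30766 in WT1, WT2 and WT3. HET1 was the lowest and WT3 the highest, and the groups overlapped. Striatal neurons are rich in Itpr1, and 8 striatal markers summed to 5729 to 6007 in heterozygous and 6709 to 7379 in wild-type samples. Of the 8, 3 were above wild type in their mean log2 value, beside 7701 of all 15151 tested genes. Genotypes did not overlap for 2 of the 8, beside 10.5% of all tested genes. The mean log2 deviation over the 8 markers overlapped, at -0.15 to 0.0389 in heterozygous and -0.137 to 0.325 in wild-type samples. The part of neighbouring striatal tissue in the Itpr1 values was not tested. Itpr2, which is prominent in astrocytes, had 1117, 1092 and 857 in HET1, HET2 and HET3, against 901, 1185 and 992 in WT1, WT2 and WT3. It was the most variable member, with a coefficient of variation of 14.0% in heterozygous and 14.1% in wild-type samples. Its high samples were HET1, HET2 and WT2. Those 3 samples also had the highest sums of astrocyte markers (Gfap, Aqp4, Slc1a3, Aldh1l1 and Gja1), at 38746, 38135 and 36329 in HET1, HET2 and HET3, against 33879, 38560 and 35810 in WT1, WT2 and WT3. The part of astrocyte RNA in the Itpr2 values was not tested. Itpr3, best known from epithelial and secretory cells, had 337, 378 and 314 in HET1, HET2 and HET3, against 312, 347 and 326 in WT1, WT2 and WT3, with HET2 highest and WT1 lowest. The 95% intervals of the log2 fold changes were -0.20 to 0.06 for Itpr1, -0.28 to 0.27 for Itpr2 and -0.16 to 0.28 for Itpr3.

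Atp2a2 had 41605, 35045 and 39461 normalized counts in HET1, HET2 and HET3, against 41615, 36255 and 39449 in WT1, WT2 and WT3. HET2 and WT2 were the low samples of each genotype, and the log2 fold change was -0.02 with a 95% interval of -0.18 to 0.15. Stim1 was the steadiest member: it had 3158, 2969 and 3120 in HET1, HET2 and HET3, against 3153, 3111 and 3153 in WT1, WT2 and WT3, with coefficients of variation of 3.23% in heterozygous and 0.767% in wild-type samples. Its log2 fold change of -0.03 had an interval of -0.14 to 0.09. Stim2, a sensor that responds to small drops in luminal calcium, had 551, 475 and 561 in HET1, HET2 and HET3, against 613, 533 and 646 in WT1, WT2 and WT3. WT2 lay below HET1 and HET3, so the groups overlapped. Its means were 529 ± 46.8 in heterozygous and 597 ± 57.8 in wild-type samples (SD, n = 3 each), and its log2 fold change was -0.17 with an interval of -0.40 to 0.05.

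**Figure D3:**
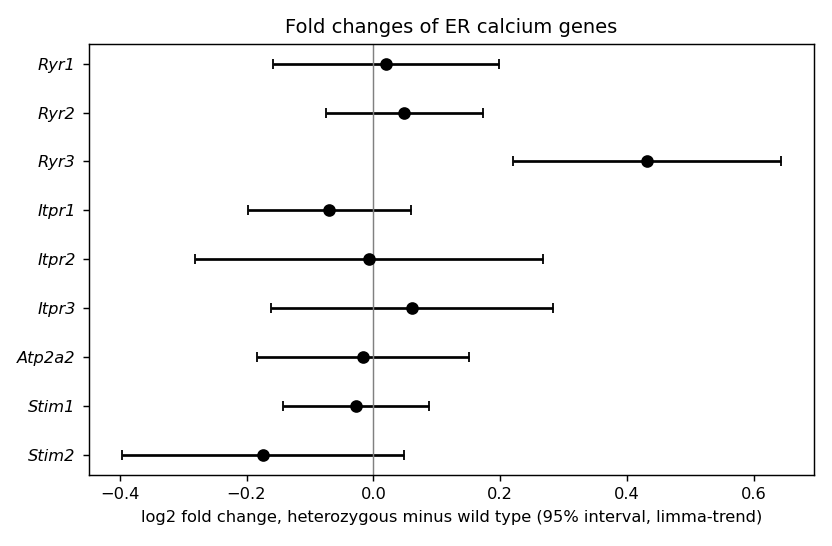
Log2 fold change, heterozygous minus wild type, of the 9 genes with 95% intervals from limma-trend. The interval of Ryr3 runs from 0.22 to 0.64 and lies above 0, while the other 8 intervals include 0.

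By limma-trend, no member had an adjusted p under 0.05, where 2 of the 15151 tested genes (0.0132%) did, namely Cyfip2, which was lower, and the processed pseudogene Gm6158, which was higher. The higher call was lost when any one of HET1, HET2 or HET3 was left out. At an unadjusted p under 0.05 there was 1 of the 9, Ryr3, beside 768 of all genes (5.07%). Ryr3 was also the only member whose genotypes did not overlap. All 3 heterozygous samples lay above all 3 wild-type samples in 5.15% of all genes, and the genotypes were apart in either direction in 10.5%. Because the group was chosen with this comparison known, nothing is read from these counts. Of the 9 genes, 4 were above and 5 below wild type. Their median log2 fold change was -0.0064, where that of all tested genes was 0.0020. The adjusted p values of the 8 genes other than Ryr3 lay between 0.95 and 0.9997 by limma-trend.

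The make-up of each receptor family was described by the share of each paralogue in the summed length-scaled level. Ryr2 made up 75.7%, 76.2% and 78.8% of the ryanodine receptor level in HET1, HET2 and HET3, against 78.1%, 78.1% and 81.3% in WT1, WT2 and WT3. Ryr3 made up 13.9%, 13.6% and 12.2% in HET1, HET2 and HET3, against 10.8%, 11.8% and 8.91% in WT1, WT2 and WT3. The Ryr3 shares of the genotypes did not overlap, while those of Ryr2 and of Ryr1, at 9.0% to 10.4% in heterozygous and 9.77% to 11.2% in wild-type samples, did. The summed ryanodine receptor level was 571 ± 19.9 per kb in heterozygous and 536 ± 15.0 per kb in wild-type samples (SD, n = 3 each). Itpr1 made up 92.7% to 94.5% of the IP3 receptor level in heterozygous and 92.9% to 94.4% in wild-type samples. The summed IP3 receptor level was 1642 ± 81.2 per kb in heterozygous and 1716 ± 60.2 per kb in wild-type samples (SD, n = 3 each).

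**Figure D4:**
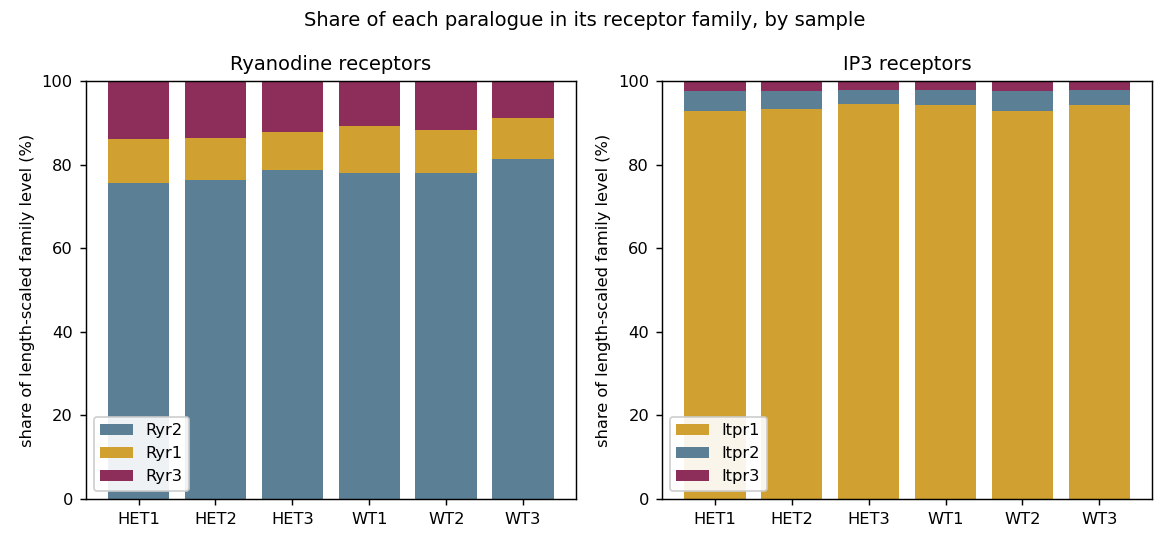
Share (%) of each paralogue in the summed length-scaled level of its family, with the ryanodine receptors on the left and the IP3 receptors on the right, for 3 heterozygous (HET) and then 3 wild-type (WT) samples. Ryr3 takes 12.2% to 13.9% in heterozygous and 8.91% to 11.8% in wild-type samples, and Itpr1 takes 92.7% to 94.5% in heterozygous and 92.9% to 94.4% in wild-type samples.

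Ratios of 2 members within a sample are free of any factor common to all genes of that sample. Of the 36 pairs, the genotypes were apart in 10. All 8 pairs with Ryr3 were among them, and 2 of the 28 pairs without it. The 8 pairs share the Ryr3 values, whose genotypes were already apart, so they restate that difference and add no support to it. Single genes were apart in 10.5% of all tested, a share that was not computed for pairs. Ryr3 had 1.17, 1.15 and 1.18 times the normalized count of Ryr1 in HET1, HET2 and HET3, against 0.838, 1.01 and 0.792 times in WT1, WT2 and WT3. Ryr2 relative to Itpr1 was 0.459, 0.447 and 0.443 in HET1, HET2 and HET3, against 0.403, 0.418 and 0.421 in WT1, WT2 and WT3. Atp2a2 relative to Stim2 was 75.5, 73.7 and 70.4 in HET1, HET2 and HET3, against 67.9, 68 and 61.1 in WT1, WT2 and WT3. These pairs are named after their values were seen, and no test was made.

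Sums of cortical layer markers also differed between the samples. The 6 deep-layer markers (Foxp2, Fezf2, Bcl11b, Rprm, Ldb2 and Syt6) summed to 5907, 5868 and 5900 normalized counts in HET1, HET2 and HET3, against 5653, 5571 and 4669 in WT1, WT2 and WT3. All 6 were above wild type in their mean log2 value, beside 7701 of all 15151 tested genes. A shift of layer markers between genotypes was not tested. Of the 6, 1 had genotypes that did not overlap, beside 10.5% of all tested genes. The 5 upper-layer markers (Cux2, Rorb, Calb1, Lamp5 and Rasgrf2) summed to 33922, 30496 and 33466 in HET1, HET2 and HET3, against 36117, 33472 and 40247 in WT1, WT2 and WT3, and 0 of the 5 were above wild type. WT3, the sample lowest in Ryr3, was lowest in deep-layer and highest in upper-layer markers. The part of layer make-up in the Ryr3 values was not tested. Without WT3, the log2 fold change of Ryr3 was 0.34. In hippocampus, a tissue rich in Ryr3, 7 neuronal genes serve as markers, and they summed to 5633 to 5887 in heterozygous and 5723 to 6832 in wild-type samples, with Dsp and Spink8 at means under 10. Of the 5 tested, 0 were above wild type and 2 had genotypes that did not overlap, beside the same 10.5% of all tested genes. Wfs1 alone had means of 2917 in heterozygous and 3005 in wild-type samples, a large part of these sums. The part of hippocampal tissue in the Ryr3 values was not tested. Smooth muscle markers (5 genes) summed to 1567 to 2171 in heterozygous and 1500.2 to 2000.3 in wild-type samples.

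The genes whose pattern over the 6 samples was most like that of Ryr3 were picked by the highest Pearson correlation of log2(value + 1) among 13303 other genes with a mean of at least 50. They were Stk36 (r = 0.991), Mto1 (r = 0.990), Rad51ap1 (r = 0.985), Alas1 (r = 0.985) and Zfpm2 (r = 0.981). With 6 samples high values are frequent: 150 genes had an r of at least 0.9. The likeness is a description, with no test. Stk36, a kinase gene, had 213, 219 and 193 normalized counts in HET1, HET2 and HET3, against 142, 170 and 128 in WT1, WT2 and WT3.

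Genes that work with the 9 were taken from 7 lists and counted next. Of 135 tested genes, each counted once, 0 passed by limma-trend, beside 0.0132% of all genes. At an unadjusted p under 0.05 by limma-trend there were 12 of the 135, a higher share than the 768 of all 15151 genes (5.07%). The lists were chosen with earlier results of these data known, so nothing is read from this share. Heterozygous and wild-type ranges were apart for 14 of the 135 (10.4%), against 10.5% of all tested genes. Median log2 fold changes of the lists lay between -0.06 and 0.01.

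Among 22 tested partners of ryanodine receptors and ER junctions, 8 were above and 14 below wild type. The smallest p values were those of Tmem38a, an ER cation channel gene, at 4438 ± 139 in heterozygous and 4695 ± 103 in wild-type samples, and Homer1, a scaffold of metabotropic glutamate and IP3 receptors, at 7343 ± 357 in heterozygous and 8463 ± 1711 in wild-type samples (SD, n = 3 each). Homer1 varied widely among wild-type samples, with 9157, 6515 and 9719 in WT1, WT2 and WT3. Among 32 tested genes of IP3 production and IP3 receptor regulation, 18 were above and 14 below. Plch2, a phospholipase C gene, was at 4180 ± 161 in heterozygous and 4637 ± 80.3 in wild-type samples (SD, n = 3 each).

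Among 22 tested genes of other SERCA pumps, their regulators and luminal calcium buffers, 7 were above and 15 below wild type. Pdia4, an ER protein disulfide isomerase gene, was at 1002 ± 38.9 in heterozygous and 1133 ± 46.9 in wild-type samples (SD, n = 3 each). Atp2a1, the SERCA gene of fast skeletal muscle, was near the lower limit of the test, with 6.93, 18.6 and 12 normalized counts in HET1, HET2 and HET3, against 28.2, 23.1 and 20.2 in WT1, WT2 and WT3. Among 17 tested genes of store-operated entry, 7 were above and 10 below wild type. Orai3, an Orai channel gene, was at 605 ± 33.6 in heterozygous and 715 ± 62.9 in wild-type samples. Cracr2b was at 67.6 ± 19.9 in heterozygous and 103 ± 21.6 in wild-type samples (SD, n = 3 each).

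Among 20 genes of calcium transfer to mitochondria, 12 were above and 8 below wild type. Mfn1, a mitochondrial fusion gene, was at 2997 ± 231 in heterozygous and 2594 ± 263 in wild-type samples (SD, n = 3 each). Among 12 tested genes of calcium extrusion, Atp2b2, a plasma membrane calcium pump gene, was at 37508 ± 1411 in heterozygous and 42527 ± 3283 in wild-type samples. Atp2b4, another such pump gene, was at 8853 ± 313 in heterozygous and 7574 ± 1078 in wild-type samples (SD, n = 3 each). Among 10 pore subunits of voltage-gated calcium channels, 4 were above and 6 below wild type. Cacna1i was at 7169 ± 664 in heterozygous and 8118 ± 417 in wild-type samples, and Cacna1h, another T-type channel gene, at 2183 ± 25.8 in heterozygous and 1854 ± 280 in wild-type samples (SD, n = 3 each). Adjusted p values of these 12 genes lay between 0.91 and 0.95 by limma-trend. Genotypes did not overlap for Tmem38a, Plch2, Pdia4, Atp2a1, Orai3, Atp2b2, Atp2b4 and Cacna1h, and they overlapped for Homer1, Cracr2b, Mfn1 and Cacna1i. Over the 135 tested list genes 10.4% were apart, against 10.5% of all tested genes. The 12 genes were named for their small p, so nothing is read from their separation.

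**Figure D5:**
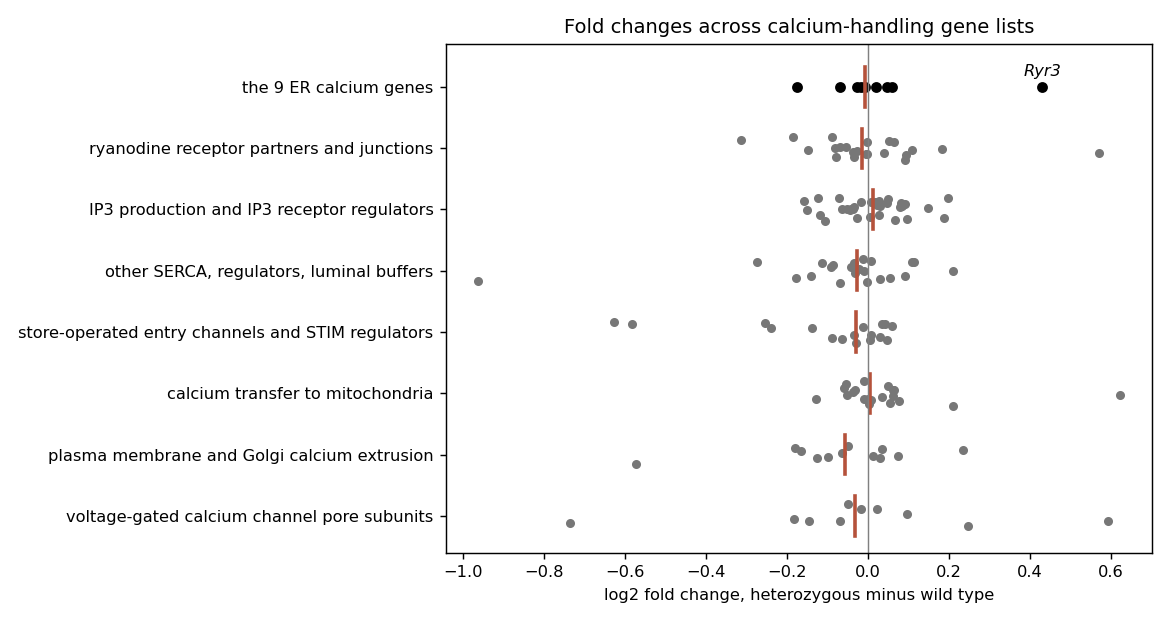
Log2 fold change, heterozygous minus wild type, of the 9 ER calcium genes (top row, black) and of each tested gene of 7 calcium-handling lists (grey; points spread vertically for display), with the median of each row as a red bar. The medians lie between -0.06 and 0.01, and Ryr3 at 0.43 stands at the upper edge of the top row.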

How the data were processed

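Stranded poly(A) libraries (TruSeq Stranded mRNA) were made from 6 samples, per the labels. The authors deposited 1 table whose values are a normalized signal per gene, called normalized counts here: read estimates divided by factors that differ between samples and genes, not raw counts. Per the submitters' processing notes, which do not say what each tool did, DESeq2 1.19.11, Salmon 0.11.2 and R 3.6.0 were used with the build GRCm38. Neither annotation release nor gene filter is stated there. Whole reads could not be recovered because the step between low values varied from gene to gene, so the count test foreseen for raw counts was not run. Depth was estimated from the most common step in each sample.

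R 4.3.3 and limma 3.58.1 were used to test log2(value + 1) by limma-trend, in a model holding genotype alone, for genes with a mean of at least 10, with Benjamini-Hochberg adjustment over all genes tested and 0.05 as the threshold. The fold changes on this scale understate the change of low genes. The procedure was tested on simulated data. Symbols matched 18122 of 18160 identifiers. Positions, exon lengths and transcript sequences came from GENCODE M21 (GRCm38), and coding sequences were aligned with MAFFT 7.526. Samples of the same genotype differed by more than counting noise (chi-square per gene, mean 8.53 to 22.9 and median 1.64 to 3.44). Exact sign-flip tests were two-sided.

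Calb1 and Wfs1 stand in a pathway list and a marker list. The members and gene lists were chosen with earlier results of these data known. Named genes are the 9 members, Cyfip2, Aven as the gene overlapping Ryr3, the 2 genes with the smallest p in each list (some items are not reported here) and the 5 genes most like Ryr3. Lengths by the longest transcript, trimmed-mean (TMM) scaling, other shrinkage, filters and pseudocounts, a block for the sample number and single samples left out were tried as alternatives.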

Additional observations from a re-analysis of the deposited data

How the results depend on the processing

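None of the 9 members and none of the pathway genes passed under any of the 14 alternatives. The log2 fold change of Ryr3 kept its direction throughout, between 0.34 (without WT3) and 0.51 (without WT2), with adjusted p values of 0.12 to 0.9997 by limma. Signs turned when single samples were left out: Ryr1 was at -0.0062 without WT2 and -0.035 without HET2 (range -0.035 to 0.092), Itpr2 at 0.10 without WT2 and 0.12 without HET3 (range -0.095 to 0.12), Itpr3 at -0.012 without HET2 (range -0.012 to 0.12), and Atp2a2 at 0.030 without WT1 and 0.054 without HET2 (range -0.070 to 0.054). These changes lay within the intervals given for each gene. Over all genes, 1 passed without the trend, 1 with a mean of at least 50, and 1 to 4 when each sample was left out (4 without WT1 or HET3, 1 without HET1, and 2 without WT2, WT3 or HET2). The number higher in heterozygotes, 1 with all samples, was 0 with a mean of at least 50 and without HET1, HET2 or HET3, so both genes called without HET2 were lower. Cyfip2 had an adjusted p of 0.15 without the trend, at the same log2 fold change of -0.63.

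With the sample number as a replicate block, 2 genes passed over all genes, as without it, and Ryr3 had an adjusted p of 0.12 at a log2 fold change of 0.43. Genes at an unadjusted p under 0.05 numbered 1363 with the block and 768 without it, and Stim2, lower in heterozygotes, had an unadjusted p of 0.038 by limma-trend with the block (adjusted p = 0.54) and 0.11 without it. Same-numbered samples correlated in their deviations from the genotype means at 0.132, 0.124 and -0.005. HET1 and HET2 each correlated best with the wild-type sample of the same number. HET3 correlated at 0.031 with WT1, slightly above its value with WT3. These values do not settle whether the numbers mark pairs, and the main model holds genotype alone.

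With the longest transcript as length, mean log2 ratios were 1.23 for Atp2a2 over Itpr1, 1.98 for Itpr1 over Ryr2, 2.65 for Stim1 over Stim2, 0.38 for Stim2 over Itpr2 and 1.09 for Ryr1 over Itpr3. Each held in 6 of 6 samples but had an adjusted p of 0.05 by the exact permutation test, because fewer pairs reached the smallest p. Ryr2 over Stim1 was at 0.051 (adjusted p = 0.333, exact permutation test). The mean family shares were then 8.84% for Ryr1, 82.2% for Ryr2, 8.96% for Ryr3, 95.9% for Itpr1, 2.89% for Itpr2 and 1.23% for Itpr3. Lengths of the isoforms present in these samples are unknown, so levels between genes carry that uncertainty.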

Other observations

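For Ryr3, Atp2a2, Stim1 and Stim2, samples with the same number held the same rank within their genotype. The share of all tested genes with such matching ranks was not computed, so nothing is read from this count. For Ryr1, Ryr2, Itpr1, Itpr2 and Itpr3 the order of the samples differed between the genotypes. The labels do not say that a number marks a shared litter or day. Atp2a2 and Stim1 were lowest in HET2 and WT2 and highest in HET1 and WT1. Ryr3 was highest in HET2 and WT2 and lowest in HET3 and WT3. Stim2 was lowest in HET2 and WT2 and highest in HET3 and WT3.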
